A study of Rattus norvegicus with 6 samples.

Results

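The genes described here are 10 transcripts widely used as readouts of YAP and the Hippo pathway: Ccn1, Ccn2, Ankrd1, Amotl1, Amotl2, Axl, Lats2, Ajuba, Fjx1 and Nt5e. They were chosen by name, and the probe sets whose only gene symbol was one of these names were taken from the deposited array values. Of the 10 genes, 9 had a value, each from 1 probe set, among 18166 genes in all. Amotl1 had none and was not analysed here. The cells were NRK-52E, a rat kidney line of tubular epithelial origin, grown in DMEM with fetal calf serum. There were 3 arrays of control cells and 3 arrays of NICD1 cells, in which the intracellular domain of Notch1, the fragment that enters the nucleus after receptor cleavage, was overexpressed from pINDUCER21, an inducible lentiviral vector. No age applies to this line. What vector the control cells carried, whether an inducer was given, for how long, and whether the cells were a clone or a pool were not stated in the labels.

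The Hippo pathway is a chain of kinases that restrains YAP and its relative TAZ, encoded by Yap1 and Wwtr1. The kinases encoded by Stk3 and Stk4 act with Sav1 on the kinases encoded by Lats1 and Lats2, which phosphorylate YAP and TAZ and hold them in the cytoplasm. When the chain is quiet, for example in spread or stretched cells, YAP and TAZ enter the nucleus and activate genes together with the DNA-binding TEAD factors. Several of the genes so activated, among them Lats2 and Amotl2, encode inhibitors that feed back on the pathway. In kidney tubules YAP and TAZ are known for roles in injury repair and fibrosis.

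Median linear intensity was 57.5 to 60.1 per array. The second principal component, with 11.8% of the variance, set control replicate 1 apart at 16.2 from the other 5 arrays, which lay between -8.99 and 2.04. Notch1 itself was higher on all 3 NICD1 arrays, 9.12 to 9.26 in log2 intensity against 8.39 to 8.66 in control cells. That is a rise of 0.66 on the log2 scale (limma, SE 0.081, adjusted p = 0.00181). Whether its probes lie within the introduced domain is not given. Of 11 measured tubule epithelium markers, 3 lay above the background level in at least 1 group, Krt8, Krt19 and Pax2, while the epithelial markers Epcam, Cdh1 and Krt18 were below it in both groups. The background level, 5.74 in log2 intensity, is the value that 95% of 1398 odorant, taste and vomeronasal receptor genes stayed under on average. At the level that 99% of them stayed under, 6.62, only 1 of the 11 tubule markers lay above it, Krt8.

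The 9 measured genes did not move as a unit. Fjx1, Ankrd1 and Axl rose in NICD1 cells, Ccn1, Ccn2 and Ajuba fell, and Amotl2, Lats2 and Nt5e did not pass the test. The rises ranged from 0.70 to 2.40 on the log2 scale, and the falls from -0.42 to -0.30. Calls were made in limma at an adjusted p under 0.05, with the Benjamini-Hochberg adjustment made over the 18166 genes. All log2 differences are NICD1 minus control. By this rule 14.7% of all genes changed, 7.45% upward and 7.22% downward. Of the 18166 genes 11410 lay above the background level in at least 1 group, and of the 9 genes 8 did. Called shares of the lists and of all genes are thus not matched for level. Of the 9 genes 6 changed (66.7%). Because the genes were chosen with results of these data known, that share is not independent evidence. Their median difference was -0.03, beside 0.01 over all genes. Their median absolute difference was 0.40, beside 0.10. The groups did not overlap for the 6 changed genes, upward for 3 and downward for 3. The same separation was seen for 32.8% of all genes, 17% upward and 15.7% downward. Without control replicate 1, the counts were again 3 rises and 3 falls.

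**Figure D1:**
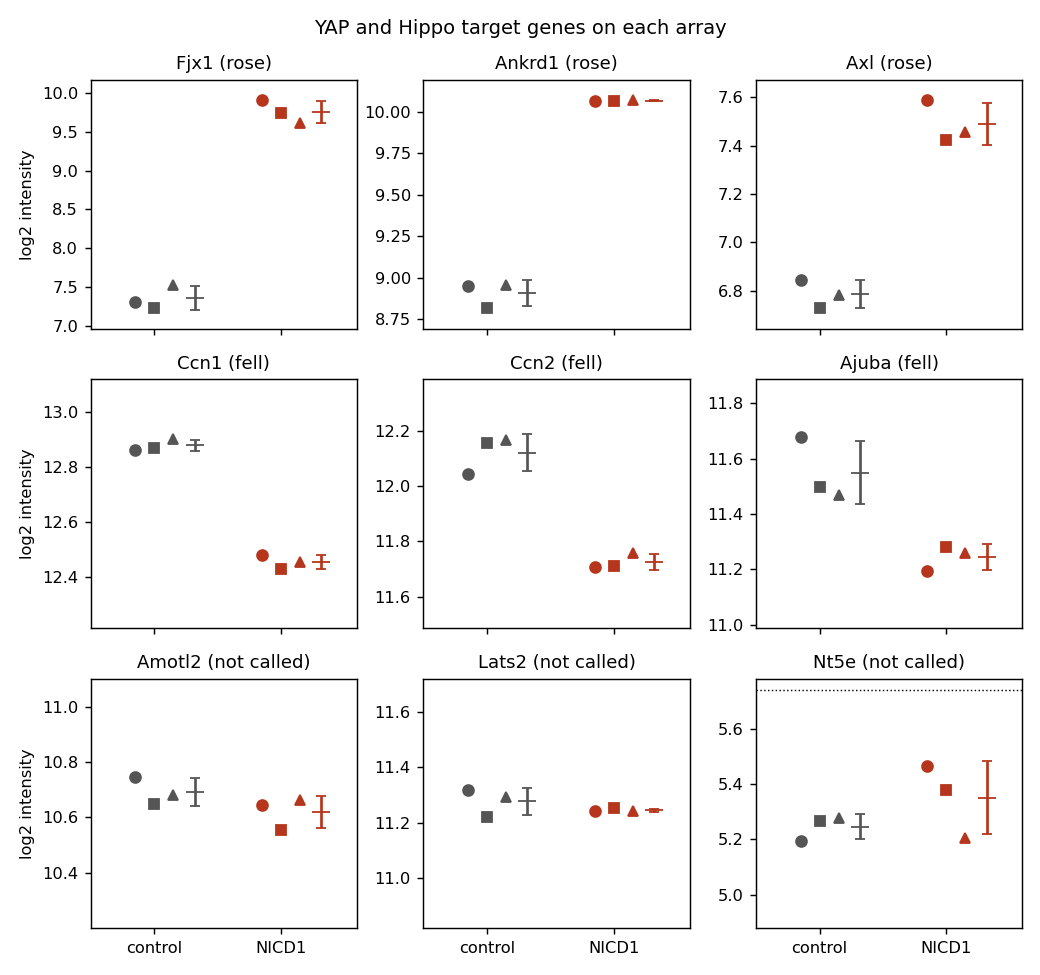
Log2 intensity of each measured gene on the 3 control arrays (grey) and the 3 NICD1 arrays (red), with circle, square and triangle for replicates 1, 2 and 3, the mean and SD (n = 3) at the right of each group, a separate vertical axis per panel, and the background level of 5.74 as a dotted line where it falls inside the panel. The groups are fully separated in the upper 6 panels, upward for Fjx1, Ankrd1 and Axl and downward for Ccn1, Ccn2 and Ajuba, and overlap in the lower 3.

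Ccn1 and Ccn2, also called Cyr61 and Ctgf, encode secreted matricellular proteins that bind integrins and are the most commonly measured YAP targets. The Ccn1 probe set (Entrez gene 83476) read 12.86, 12.87 and 12.90 in log2 intensity in control replicates 1 to 3. In NICD1 replicates 1 to 3 it read 12.48, 12.43 and 12.46. Every NICD1 array was thus below every control array, by at least 0.38, and the arrays of a group lay within 0.05 of each other. Ccn1 fell by 0.42 on the log2 scale (SE 0.049; limma adjusted p = 0.00133), a level 1.34-fold lower. Its mean went from 12.88 ± 0.02 to 12.46 ± 0.02 (SD, n = 3 each).

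Ccn2 (Entrez gene 64032) moved by nearly the same amount. It read 12.04, 12.15 and 12.16 in control replicates 1 to 3, and 11.71, 11.71 and 11.76 in NICD1 replicates 1 to 3. Control replicate 1 was the lowest control array and still lay 0.28 above the highest NICD1 array. Ccn2 fell by 0.40 on the log2 scale (SE 0.057; limma adjusted p = 0.00369), which is 1.32-fold lower. The 95% confidence intervals were -0.54 to -0.31 for Ccn1 and -0.53 to -0.26 for Ccn2. The exact two-sided permutation p was 0.1 for each of the 6 changed genes, the smallest that 3 arrays against 3 allow.

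The promoters of Ccn1 and Ccn2 are shown because both hold the letters bound by TEAD factors, GGAATG, or CATTCC on the other strand. Each sequence is the 250 bases before the RefSeq start site in the rat build GRCr8, on the minus strand, written 5′ to 3′ in the direction of transcription. Capitals mark the TEAD motif. The Ccn2 window is chr1:22624615-22624864 and holds 3 matches, the outermost beginning 166 bases before the start site. The Ccn1 window is chr2:237225690-237225939 and holds 1, beginning 113 bases before it. Of 33469 such rat windows, 12.1% held at least 1 match and 0.0807% at least 3.
Ccn2: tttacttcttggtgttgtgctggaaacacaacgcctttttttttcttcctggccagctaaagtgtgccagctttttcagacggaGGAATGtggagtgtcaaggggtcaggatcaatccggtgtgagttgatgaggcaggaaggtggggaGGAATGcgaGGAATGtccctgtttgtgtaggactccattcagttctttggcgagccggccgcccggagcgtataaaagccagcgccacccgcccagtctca
Ccn1: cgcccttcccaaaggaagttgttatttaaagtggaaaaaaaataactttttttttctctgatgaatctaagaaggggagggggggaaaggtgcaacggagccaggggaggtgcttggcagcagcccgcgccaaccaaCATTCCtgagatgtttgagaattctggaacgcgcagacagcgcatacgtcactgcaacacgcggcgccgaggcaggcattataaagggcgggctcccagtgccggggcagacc

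The remaining relatives of these proteins gave no call. Ccn4, a secreted relative linked to Wnt signalling, stood at 11.76 in both groups, with a difference of 0.00 (SE 0.050; limma adjusted p = 0.986). Ccn3 lay below background in both groups. Ccn5 and Ccn6 had differences of -0.11 and -0.04.

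Fjx1 had the largest difference of the 9 genes. It encodes a secreted or Golgi protein related to the fly kinase four-jointed, which acts on the cadherins Fat and Dachsous upstream of Hippo. Fjx1 (Entrez gene 366140) read 7.30, 7.23 and 7.53 in control replicates 1 to 3, and 9.90, 9.74 and 9.62 in NICD1 replicates 1 to 3. The groups were 2.09 apart at their nearest points, while arrays within a group differed by at most 0.29. Fjx1 rose by 2.40 (SE 0.103; limma adjusted p = 1.87e-05), a level 5.28-fold higher, and ranked 14 among 18166 genes ordered by rise. The atypical cadherins did not pass the test. Fat1 had a difference of 0.12 (adjusted p = 0.197) and Fat4, which stood at 6.00 and 5.84, had -0.16 (0.178). The group means of Dchs1 lay below background, with 2 NICD1 arrays above it.

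The Fjx1 promoter, chr3:109231325-109231574 on the minus strand of GRCr8, is given as a contrast to those of Ccn1 and Ccn2. Searched in the same 250 bases and on both strands, it held no match to the TEAD motif. It also held none to the motif of RBPJ, the DNA-binding partner of NICD1 (GTGGGAA, or TTCCCAC), to the AP-1 motif (TGANTCA) or to the CArG box of serum response factor. At least 1 match was present in 5.27% of all windows for RBPJ, 6.34% for AP-1 and 1.5% for the CArG box. No match says only that these letters are not in this window.
Fjx1: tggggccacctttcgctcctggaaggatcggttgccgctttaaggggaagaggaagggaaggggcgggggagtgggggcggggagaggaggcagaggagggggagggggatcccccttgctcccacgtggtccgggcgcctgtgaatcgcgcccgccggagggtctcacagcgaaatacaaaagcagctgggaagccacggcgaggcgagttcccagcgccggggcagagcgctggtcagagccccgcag

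Ankrd1 encodes a nuclear and sarcomeric ankyrin-repeat protein that responds to stretch. Ankrd1 (Entrez gene 27064) read 8.95, 8.82 and 8.96 in control replicates 1 to 3, and 10.07 on each of the 3 NICD1 arrays. The NICD1 arrays spanned 0.0031, against 0.14 in control, and the gap between the groups was 1.11. Ankrd1 rose by 1.16 (SE 0.058; limma adjusted p = 3.14e-05), 2.23-fold. Its relatives Ankrd2 and Ankrd23 had differences of -0.01 and 0.17, and neither passed (adjusted p = 0.957 and 0.217).

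Axl encodes a receptor tyrosine kinase that, with Tyro3 and Mertk, binds the ligands Gas6 and protein S. Axl (Entrez gene 308444) read 6.85, 6.73 and 6.78 in control replicates 1 to 3. It read 7.59, 7.42 and 7.46 in NICD1 replicates 1 to 3. The lowest NICD1 array was 0.58 above the highest control array. Axl rose by 0.70 (SE 0.065; limma adjusted p = 4.56e-04), 1.63-fold.

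Neither other receptor of this family was called upward. Mertk, which is known for the uptake of dying cells, read 7.22, 7.40 and 7.09 in control replicates 1 to 3 and 6.34, 6.33 and 6.50 in NICD1 replicates 1 to 3. It fell by 0.85 on the log2 scale (SE 0.092; limma adjusted p = 9.68e-04). The intervals of the differences, 0.55 to 0.86 for Axl and -1.06 to -0.63 for Mertk, lay on opposite sides of 0. Tyro3 had a difference of -0.21 that did not pass (adjusted p = 0.0606). Both ligand genes rose: Gas6 by 0.46 (SE 0.071; adjusted p = 0.0054) and Pros1, which encodes protein S, by 0.52 (SE 0.069; adjusted p = 0.00266). Gas6 read at most 10.03 in control cells and at least 10.33 in NICD1 cells.

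Nt5e encodes CD73, the surface enzyme that turns AMP into adenosine. Its probe set (Entrez gene 58813) read 5.19 to 5.28 in control and 5.21 to 5.47 in NICD1 cells, below the background level on all 6 arrays. The difference of 0.10 (95% confidence interval -0.08 to 0.29; limma adjusted p = 0.461) is therefore no measure of a change in this gene. Of the enzymes that feed CD73, Entpd3, an ectonucleotidase, read 6.65, 6.72 and 6.60 in control replicates 1 to 3 and 8.84, 8.95 and 8.70 in NICD1 replicates 1 to 3. Entpd3 rose by 2.17 (SE 0.077; limma adjusted p = 1.01e-05), 4.51-fold. Entpd2 (0.19) and Enpp1 (-0.18) did not pass, and Entpd1 had no value and was not analysed here. None of the 4 adenosine receptor genes passed either, with differences between -0.08 and 0.10. Of these, Adora2a and Adora3 lay below background on all 6 arrays, so their differences are no measure of a change.

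Of the members that act inside the pathway, Ajuba was the only gene called. It encodes a LIM-domain adaptor that binds the LATS kinases at junctions. Ajuba (Entrez gene 85265) read 11.68, 11.50 and 11.47 in control replicates 1 to 3, and 11.19, 11.28 and 11.26 in NICD1 replicates 1 to 3. The groups were 0.19 apart, less than the spread of the control arrays, 0.21. Ajuba fell by 0.30 on the log2 scale (SE 0.071; limma adjusted p = 0.0296). The call was lost without control replicate 2 (0.0616) or without NICD1 replicate 1 (0.102), 2 (0.0702) or 3 (0.0794), leaving 2 falls among the 9 genes. Among its LIM-domain relatives, Wtip fell by 0.56 on the log2 scale (SE 0.084; adjusted p = 0.00468). Limd1 had a difference of 0.20 that did not pass (adjusted p = 0.202).

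Lats2, the kinase that restrains YAP and is itself a YAP target, did not pass the test. It read 11.32, 11.22 and 11.29 in control replicates 1 to 3 and 11.24, 11.25 and 11.24 in NICD1 replicates 1 to 3, all within the control range. The difference was -0.03 (95% confidence interval -0.15 to 0.09; limma adjusted p = 0.756). Amotl2, an angiomotin that holds YAP at junctions and actin, read 10.75, 10.65 and 10.68 in control replicates 1 to 3 and 10.65, 10.55 and 10.66 in NICD1 replicates 1 to 3. The groups overlapped, and the difference was -0.07 (95% confidence interval -0.21 to 0.07; limma adjusted p = 0.511). These intervals leave out any change of Lats2 or Amotl2 as large as the fall of Ccn1. Amot, the founding angiomotin, had a difference of -0.24 that did not pass (adjusted p = 0.0996).

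Ajuba and Amotl2 also held a TEAD match before the RefSeq start site. The sites are shown with 12 bases on each side and the match in capitals: Ajuba at chr15:32000261-32000290 on the minus strand and Amotl2 at chr8:112182538-112182567 on the plus strand of GRCr8. The Ajuba match begins 236 bases and the Amotl2 match 76 bases before the start site. The Amotl2 window lies downstream of the annotated 5′ end of that gene, so it may fall within a longer transcript.
Ajuba: tgcccctccgcaCATTCCaactgtaaacaa
Amotl2: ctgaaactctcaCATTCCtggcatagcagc

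Sequences for 7 of the 9 measured genes were in the RefSeq promoter table. Ankrd1, which rose, and Lats2, which did not pass, had none there. Ccn1, Ccn2 and Ajuba, which fell, held 1, 3 and 1 TEAD matches, and Amotl2, which did not pass, held 1. Fjx1 and Axl, which rose, and Nt5e held none. No RBPJ, AP-1 or CArG match was found in these 7 windows. With 7 genes this is a description and was not tested. Among the other known YAP targets taken up below, Nuak2, which rose, and Ptpn14, which fell, held 1 TEAD match each. Crim1 and Myof, which fell, and Igfbp3 and Tgfb2, which rose, held none.

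**Figure D2:**
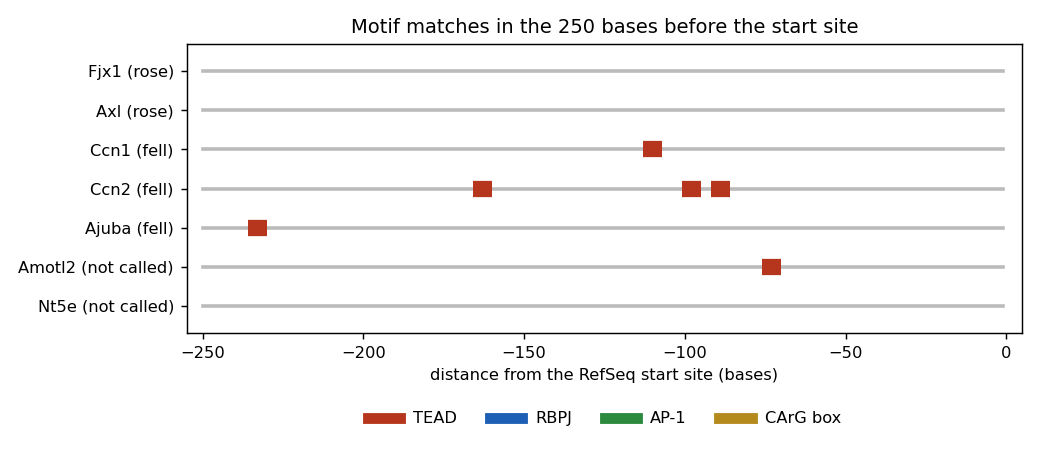
Matches to 4 motifs in the 250 bases before the RefSeq start site (horizontal axis, bases) of the 7 measured genes with a promoter sequence, each with its call in NICD1 cells. All 6 matches are to the TEAD motif, 3 of them in Ccn2, and the lines of Fjx1, Axl and Nt5e are empty.

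Of the factors that these genes answer to, Yap1 and Wwtr1 were not called and the TEAD genes were split. Yap1 read 10.55 to 10.66 in control and 10.41 to 10.53 in NICD1 cells, without overlap, but its difference of -0.12 did not pass (SE 0.058; limma adjusted p = 0.257). Wwtr1 had a difference of -0.09 (95% confidence interval -0.21 to 0.04; limma adjusted p = 0.37). The TEAD genes encode the DNA-binding partners of both. Tead2 rose by 0.59 (SE 0.055; limma adjusted p = 4.91e-04), from 9.65 ± 0.05 to 10.24 ± 0.05 (SD, n = 3 each). Tead1 fell by 0.29 on the log2 scale (adjusted p = 0.0173), and Tead3 fell by 0.28 (0.00916). Tead1 stood at 11.76 ± 0.08 and 11.47 ± 0.03, and Tead3 at 7.80 ± 0.03 and 7.52 ± 0.02 (SD, n = 3 each). Tead4 and Lats1 had no value and were not analysed here.

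Vgll3 and Vgll4, which encode cofactors that bind TEAD in place of YAP, both fell. Vgll3 read 11.19, 11.24 and 11.38 in control replicates 1 to 3 and 10.48, 10.44 and 10.53 in NICD1 replicates 1 to 3. It fell by 0.79 on the log2 scale (SE 0.065; limma adjusted p = 2.68e-04), the largest fall among the Hippo kinases, regulators and YAP/TEAD factors. Vgll4, known as a repressor of TEAD, fell by 0.56 (SE 0.090; adjusted p = 0.00615).

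In that list of kinases, regulators and factors, 27 of 32 genes were measured, 3 rose, 6 fell and 18 did not pass. The called share was 33.3%, beside 14.7% of all genes, and the median difference was -0.09, beside 0.01. Of these 27 genes 24 lay above background in at least 1 group, beside 11410 of all 18166, so the shares are not matched for level. Besides Tead2, the FERM-domain protein gene Frmd6 (0.31) and the kinase gene Map4k4 (0.38) rose. Besides the TEAD and VGLL genes, the kinase gene Stk4 fell by 0.38 on the log2 scale (adjusted p = 0.00523), and Wwc2, a relative of the LATS activator KIBRA, fell by 0.56 (0.00165). Stk3 (0.06), Sav1 (-0.09) and Nf2 (-0.13), which encodes the upstream scaffold merlin, did not pass. Without any array except control replicate 1 the falls numbered 5, as Tead1 lost its call (adjusted p = 0.0536 to 0.0676).

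Other genes known as YAP targets also moved in both directions. Of 14, 10 were measured, 3 rose, 4 fell and 3 did not pass. The called share was 70%, beside 14.7% of all genes, and the median difference was -0.11, beside 0.01. All 10 lay above background in at least 1 group, so the shares are not matched for level. This list too was chosen with earlier results of these data known, so its share is not independent evidence. Igfbp3, a secreted binding protein of insulin-like growth factors, read 6.21, 5.73 and 5.56 in control replicates 1 to 3 and 7.85, 7.67 and 7.77 in NICD1 replicates 1 to 3. It rose by 1.93 (SE 0.159; limma adjusted p = 2.69e-04), and control replicates 2 and 3 were below background. Tgfb2, a TGF-beta ligand, rose by 0.37 and the kinase gene Nuak2 by 0.28.

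The falls in this list were those of Crim1, Ptpn14, F3 and Myof. Crim1, a transmembrane protein that binds BMP ligands, read 12.19, 12.04 and 12.12 in control replicates 1 to 3 and 11.32, 11.37 and 11.32 in NICD1 replicates 1 to 3. It fell by 0.78 on the log2 scale (SE 0.059; limma adjusted p = 1.77e-04). Ptpn14, a phosphatase that binds YAP, fell by 0.41 (adjusted p = 0.00135), tissue factor, F3, fell by 0.30 (0.00625), and the membrane repair gene Myof fell by 0.23 (0.0233). Nuak2 lost its call without NICD1 replicate 1 (0.0579) or NICD1 replicate 2 (0.0644). Myof lost its call without any array except control replicate 1 (0.054 to 0.0865).

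**Figure D3:**
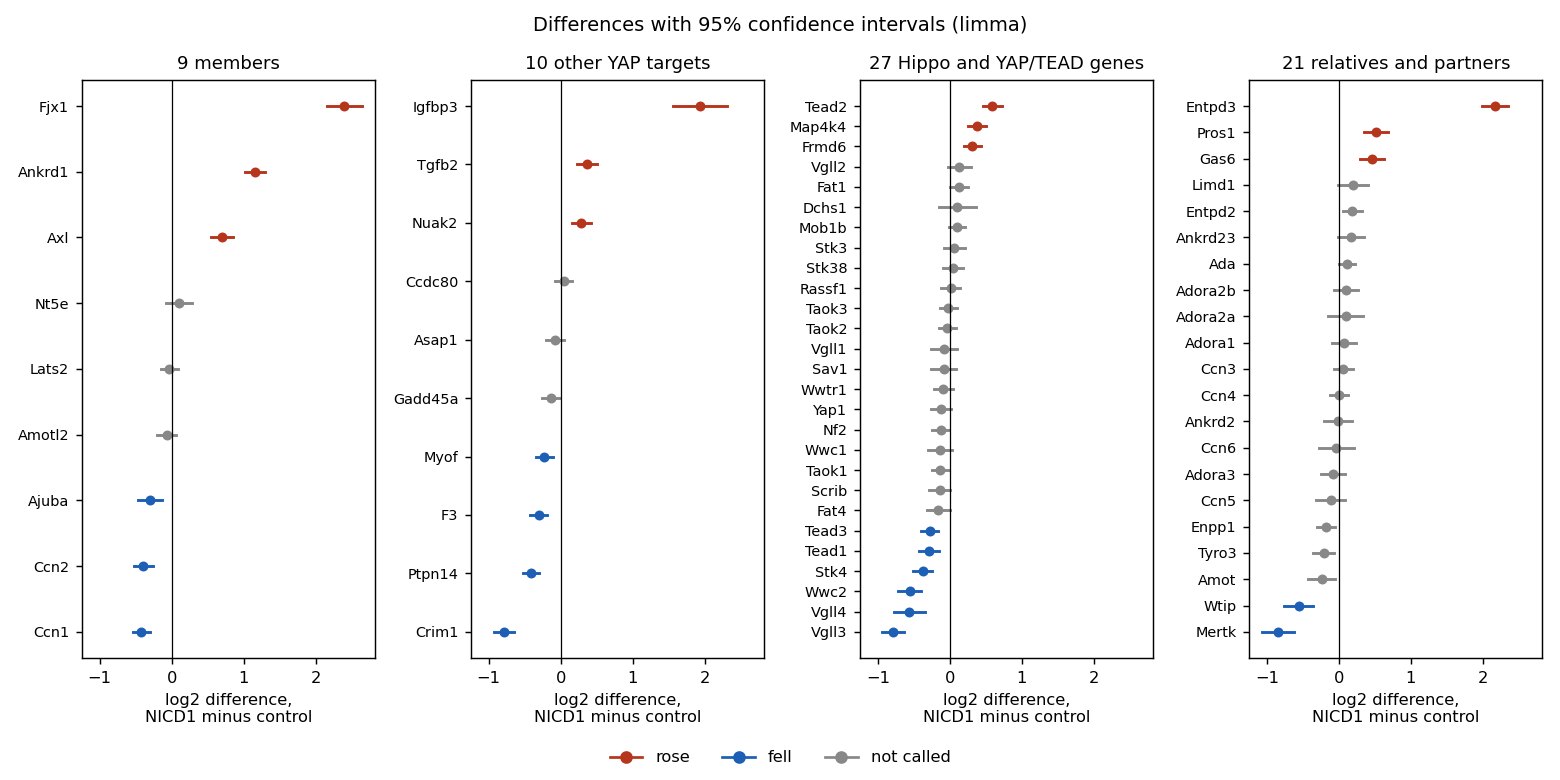
Log2 difference (NICD1 minus control) with its 95% confidence interval for the 9 measured genes and for 3 related lists, sorted within each panel, with red for genes that rose, blue for genes that fell and grey for genes not called. Each panel holds rises and falls, and the largest rises are those of Fjx1 (2.40), Igfbp3 (1.93), Tead2 (0.59) and Entpd3 (2.17).

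Among relatives and partners of the 9 genes, 21 of 22 were measured, 3 rose, 2 fell and 16 did not pass. The called share was 23.8%, beside 14.7% of all genes, and the median difference was 0.06, beside 0.01. Of these 21 genes 18 lay above background in at least 1 group, so these shares are not matched for level either. The rises were those of Entpd3, Gas6 and Pros1, and the falls those of Mertk and Wtip. The falls numbered 4 when the dimmest 30% of genes were left out and 5 with an intensity trend and a robust prior set together. Without control replicate 1 they numbered 3.

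Markers of other cell types were in part above background. Of 8 fibroblast markers, 5 lay above it in at least 1 group. Col1a1 rose by 0.90, Mfap5 fell by 0.85 on the log2 scale, from 11.70 to 10.85, and Fbln1 fell by 0.34. The mean log2 level of the fibroblast list was 6.76 to 6.89 in control and 6.74 to 6.79 in NICD1 cells. Of 6 endothelial markers, 1 lay above background, Tek, which fell by 0.57 on the log2 scale. Flt1 was called upward, by 0.35 (limma adjusted p = 0.0329), but lay below background on all 6 arrays. Its difference is therefore no measure of a change in this gene. The endothelial mean was 5.51 to 5.58 and 5.48 to 5.55. Of 8 leukocyte markers, 3 lay above it: Cd14, at 11.19 in control and 11.32 in NICD1 cells and not called, Cd79b, also not called, and Cd68, which rose by 0.27. Ptprc, which encodes the pan-leukocyte antigen CD45, was below it in both groups. At the stricter level of 6.62, 4 fibroblast, 1 endothelial and 2 leukocyte markers lay above it in at least 1 group. The leukocyte mean was 5.80 to 5.85 and 5.86 to 5.89. The tubule epithelium mean was 5.28 to 5.41 and 5.48 to 5.51, and Krt8 rose by 1.08. The tubule and endothelial means lay below the background level of 5.74, as most genes of both lists did. Group differences in these means are therefore no measure of a change in either list. The part of these lists in the differences above was not tested. In bulk RNA, fewer cells expressing a gene and less RNA per cell cannot be told apart.

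**Figure D4:**
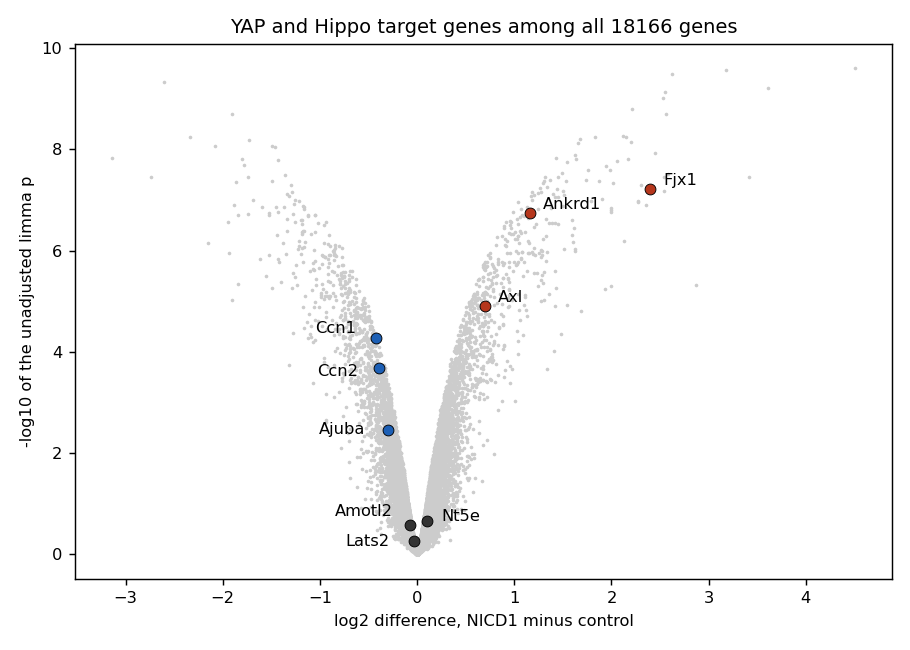
Log2 difference (NICD1 minus control, horizontal axis) and -log10 of the unadjusted limma p (vertical axis) for all 18166 genes (grey), with the 9 measured genes marked in red (rose), blue (fell) or black (not called). Fjx1, at 2.40, lies among the largest rises, whereas Ccn1, Ccn2 and Ajuba lie between -0.42 and -0.30 on the falling side.

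The size of the differences can be read against the array as a whole. The share of all genes with a larger absolute difference was 0.0881% for Fjx1, 1.06% for Ankrd1 and 3.12% for Axl. It was 7.59% for Ccn1, 8.53% for Ccn2 and 12.9% for Ajuba. For Nt5e, Amotl2 and Lats2 it was 48.9%, 62.6% and 81.6%.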

How the data were processed

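The values are RMA intensities, 1 per probe set and array, which the authors deposited. Per the submitters' processing notes, they come from Affymetrix Expression Console. RMA corrects background, equalises the distribution of intensity between arrays and summarises probes, so a shift shared by most transcripts is removed. The deposited intensity values are linear, so log2 was taken with no pseudocount. Array type, build and software versions are not stated in the labels.

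Of 36685 probe sets, 18511 had 1 symbol, 575 several and 17599 none. Those with 1 were averaged per symbol, giving 18166 genes, 18058 of which matched RefSeq (GRCr8) by gene identifier. Groups and replicate numbers came from the sample titles. The comparison of NICD1 with control used limma 3.58.1 under R 4.3.3 (lmFit, eBayes, no term but the group, two-sided). An exact permutation test over the 20 arrangements of the 6 arrays was added for single genes. The code was tested on simulated data. Motifs were searched in RefSeq promoter sequences, and figures were drawn with matplotlib 3.10.9.

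The genes and lists were chosen with earlier results of these data known, so their called shares are not independent evidence. The list of other YAP targets was written from general knowledge. Named genes were Notch1, the 9 measured genes, Yap1, Wwtr1 and the TEAD genes, and up to 5 changed genes per list with the smallest adjusted p. Other genes of the lists are named as examples, chosen after their values were seen. The background level was set with the values known and removed no gene. The alternatives tried were a block for the replicate number, array weights, a fit on all probe sets, centring on the median, repeated quantile normalisation, a robust prior with an intensity trend, removal of the dimmest 30% of genes, only the brightest probe set of a gene, and removal of each array. Nothing says that the replicates were separate cultures, and the p-values reflect the spread between these arrays alone, which may be technical, and 3 arrays a group limit the precision. No batch is given.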

Additional observations from a re-analysis of the deposited data

How the results depend on the processing

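The directions of the 9 genes and of Notch1 held under median centring, a second quantile normalisation and array weights, and without any 1 array. The other alternative settings leave the difference of a gene with 1 probe set unchanged, so they could not alter a direction. Under all 8 alternative settings and without any 1 of the 6 arrays, only Ajuba changed its side of the threshold. Ajuba lost its call with the replicate number as a block (limma adjusted p = 0.0844), with all probe sets tested (0.097), and without 4 of the 6 arrays, over a range of 0.00106 to 0.102. The rises numbered 3 under each alternative, and the falls 2 or 3. Among the listed genes that were called, Tead1, Myof and Nuak2 lost their calls with all probe sets tested (0.068, 0.09 and 0.0637), and Myof with the block (0.0834). Same-numbered arrays did not deviate together (r = -0.0832, -0.0153 and -0.0416 over 11210 genes), so the numbers were not taken to pair the arrays. With that replicate block, the 9 genes gave 3 rises and 2 falls, and all genes 999 rises and 920 falls, against 1354 and 1312. With all 36685 probe sets tested together, 826 genes rose and 740 fell. A gene was called there on the smallest adjusted p of its probe sets, with the sign of their mean difference. Without 1 array the rises over all genes numbered 952 to 1337 and the falls 875 to 1149. Among relatives and partners, the falls numbered 4 without the dimmest 30% of genes or under array weights, and 5 under an intensity trend and a robust prior set together. Of the 9 genes, 8 lay above background at either the 95th or the 99th percentile of receptor genes (5.74 and 6.62). Centring or a second quantile normalisation moved the median of all genes by under 0.1 on the log2 scale. RMA had already equalised the arrays, so little shift was possible.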

Other observations

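Wtip, the LIM-domain relative of Ajuba that fell by 0.56 on the log2 scale, held 3 TEAD matches in the 250 bases before its start site, as Ccn2 did. Only 27 of 33469 promoter windows held 3 or more. Wtip was singled out after its value was seen. In the same list of relatives and partners, Ankrd23, which was not called, held 1 match. Mertk, the other gene of that list that fell, held none, and neither did Entpd3, Gas6 or Pros1, which rose.

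Over all measured genes with a promoter window, 14564 in number, 7.59% rose and 7.3% fell. Of the 1649 with at least 1 TEAD match, 113 rose (6.85%) and 145 fell (8.79%), and of the 122 with at least 2, 9 rose (7.38%) and 16 fell (13.1%). Of the 827 with at least 1 RBPJ match, 66 rose (7.98%) and 55 fell (6.65%), and of the 29 with at least 2, 4 rose (13.8%) and 0 fell. These are counts, and no test of the motif was made.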
